A study of Mus musculus with 6 samples.

Results

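The sarcomere isoforms described here are 10 genes that mark slow fibres, heart muscle or developing muscle: the cardiac alpha-actin Actc1, the slow and ventricular myosin genes Myh7, Myl2 and Myl3, the slow or cardiac troponins Tnnt1, Tnnt2, Tnni1 and Tnnc1, and the embryonic and neonatal myosin heavy chains Myh3 and Myh8. They were picked by symbol, and all 10 were found among the 24067 genes of the count table. The libraries came from tongue with tumour of C57BL/6 mice, about 34 weeks old, 3 labelled HuR knockout (KO) and 3 labelled HuR wild type (WT). All 6 mice had received the carcinogen 4-nitroquinoline 1-oxide for 16 weeks and were then kept for 12 weeks. The Cre driver and the cells of the knockout are not given in the sources used. Nothing says whether the replicates came from separate litters or batches, and the spread behind each p-value is that between these samples, which may be technical. The comparison asks how transcripts differ between tongues with and without HuR after this carcinogen. HuR is an RNA-binding protein known to bind AU-rich sequences.

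Striated muscle builds its sarcomere from actin, myosin heavy and light chains and the troponin complex, and each of these proteins has several genes that are used in different fibre types and at different ages. Fast fibres use Acta1, Myh4, Myh1, Myh2, Mylpf, Myl1, Tnnt3, Tnni2 and Tnnc2. Slow fibres share Myh7, Myl2, Myl3 and Tnnc1 with the heart ventricle and add Tnnt1 and Tnni1, while Tnnt2 and Actc1 are the main troponin T and actin of the adult heart. In embryonic and in regenerating skeletal muscle Actc1, Tnnt2, Myh3 and Myh8 are expressed before the adult isoforms replace them. The tongue of the adult mouse is known as a fast muscle.

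Levels are read counts normalised by TMM and given as CPM. Fold changes are on the log2 scale, KO label over WT label, and carry a standard error. The edgeR quasi-likelihood p-values were adjusted by Benjamini-Hochberg across the 15903 genes left by a filter on low counts. Total counts were between 29543352 and 51520707 per library. HuR's own gene, Elavl1, stood at 65.0, 59.3 and 78.4 CPM in KO-labelled tongues and at 61.7, 55.8 and 48.0 CPM in WT-labelled tongues, which does not show the loss named by the label, and every direction below is therefore one between labels. Xist was at 1271 and 1104 CPM in KO-labelled tongues 2 and 3, and at 1.24 CPM in KO replicate 1 and 0.625 to 2.50 CPM in the WT-labelled tongues. By these values 2 of 3 KO-labelled tongues and 0 of 3 labelled WT were female. The 17 genes of a list of general sarcomere proteins, such as Ttn and Neb, held 1.90 to 2.53% of counts in KO-labelled tongues and 3.22 to 4.6% in WT-labelled tongues. Of these 17 genes 4 fell, Ttn, Neb, Xirp2 and Cmya5, and 0 rose. At an unadjusted p under 0.05, by DESeq2 and by limma-voom 15, 15 and 7 were lower and 0 higher, and all 17 fold changes were below 0. The 7 basal and 11 suprabasal keratinocyte markers held 1.34 to 1.54% and 3.17 to 4.62% in KO-labelled tongues, against 0.471 to 1.18% and 1.37 to 2.28% in WT-labelled tongues. Of the suprabasal markers 3 rose, Sprr1a, Sprr1b and Krt10, and 0 fell. At an unadjusted p under 0.05, by DESeq2 and by limma-voom 6, 6 and 3 were higher and 0 lower. Of the basal markers 0 passed by edgeR or limma-voom, while 3 were higher at an unadjusted p under 0.05 and 3 by DESeq2. Among those nearest to passing were Itga6 and Krt14, at 0.71 and 1.23 on the log2 scale. The part of this difference in composition in the results below was not tested. Less muscle per tongue and less transcript per fibre cannot be told apart in these whole-tissue libraries, and sex was confounded in part with the labels.

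Of the 10 isoform genes, 9 passed the filter on low counts, and Myl3 did not. At an adjusted p under 0.05, 2 of the 9 fell, Actc1 and Myh3, and 0 rose. At an unadjusted p under 0.05, by DESeq2 and by limma-voom 3, 2 and 2 were lower and 0 higher. Over all genes tested 7.43% were called lower and 4.81% higher, 12.2% in all. The CPM of the groups did not overlap in 2 of the 9, the same 2 genes, against 44.1% of all genes tested. The median log2 fold change of the 9 was -0.51, against 0.02 over all genes tested. The slow and cardiac troponins and the light chain gene Myl2 were not called in either direction, with log2 fold changes from -0.65 (Tnni1) to 0.55 (Tnnc1).

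The promoters of both genes that fell, and of the most abundant slow and neonatal members, Tnnt1 and Myh8, are shown so that the elements near their starts can be compared. They run 5′ to 3′ from 250 bases before to 50 bases after the start listed by RefSeq in GRCm38.p6 (the assembly called mm10). Capitals mark the TATA motif TATAAA, the MCAT element CATTCC, the CArG box and the MEF2 site, on either strand.
Actc1 (chr2:114052826-114053125, - strand): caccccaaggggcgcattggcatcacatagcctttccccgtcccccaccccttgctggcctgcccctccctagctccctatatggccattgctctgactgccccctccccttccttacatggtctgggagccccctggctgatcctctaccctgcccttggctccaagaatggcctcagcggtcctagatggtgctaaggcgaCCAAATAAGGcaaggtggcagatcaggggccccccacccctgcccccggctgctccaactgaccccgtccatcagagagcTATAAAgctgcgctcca
Myh3 (chr11:67078050-67078349, + strand): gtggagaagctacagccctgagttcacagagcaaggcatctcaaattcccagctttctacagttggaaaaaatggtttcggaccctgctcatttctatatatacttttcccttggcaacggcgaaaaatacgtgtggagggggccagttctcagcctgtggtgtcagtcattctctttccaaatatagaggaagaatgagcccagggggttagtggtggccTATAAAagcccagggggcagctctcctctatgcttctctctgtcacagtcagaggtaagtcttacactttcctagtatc
Tnnt1 (chr7:4515926-4516225, - strand): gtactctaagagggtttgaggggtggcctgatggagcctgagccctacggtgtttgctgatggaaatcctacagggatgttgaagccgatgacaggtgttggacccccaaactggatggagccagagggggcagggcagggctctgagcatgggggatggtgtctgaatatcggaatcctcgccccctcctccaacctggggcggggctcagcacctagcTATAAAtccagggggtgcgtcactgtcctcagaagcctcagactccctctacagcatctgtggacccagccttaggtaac
Myh8 (chr11:67276874-67277173, + strand): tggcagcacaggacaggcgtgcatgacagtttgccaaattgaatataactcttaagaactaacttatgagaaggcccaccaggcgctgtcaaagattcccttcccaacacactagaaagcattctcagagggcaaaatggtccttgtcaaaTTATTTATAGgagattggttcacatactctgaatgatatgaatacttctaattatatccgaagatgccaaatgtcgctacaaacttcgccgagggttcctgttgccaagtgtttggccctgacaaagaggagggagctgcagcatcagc

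All 10 genes matched RefSeq promoters, 14 in number because Tnni1, Tnnt2, Myl2 and Myh7 each have a second start. Actc1 has a CArG box, the binding motif of serum response factor, 47 bases before its listed start, and TATAAA 33 bases after it. Among all 32851 promoters 1.63% held a CArG box. Of the other members, Myl3 alone had one, 85 bases before its start. TATAAA lies 29 bases before the start of Myh3 and 30 before that of Tnnt1, and 13.6% of all promoters held it. In Myh8 the match to TATAAA is on the other strand and lies within the MEF2 site, which 3.19% of all promoters held and no other member did in these windows. Myl2 has TATAAA on the other strand, 216 bases before its second start. CATTCC (14.7% of all promoters) was found in Tnnt2, Myl3, Tnnc1 and Myh7. The E-box CANNTG was present in each of the 10 genes' promoters, and 72.3% of all promoters held it. These are matches of letters and say nothing of binding.

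AU-rich pentamers in the 3′ UTR were searched because HuR is known to bind such sequences. Of 20711 mouse genes with a 3′ UTR in GENCODE M21, 62.7% had at least 1 ATTTA, with a median UTR length of 848 bases. Only Actc1 among the 10 isoform genes held one in its chosen transcript, in a UTR of 184 bases on chromosome 2, shown here as DNA with the pentamer in capitals.
Actc1: tgcttcaaatATTTAttgctttata
The UTRs of the other 9 were 26 (Myh7) to 379 bases (Tnni1) long, all under that median. Among the fast counterparts Myh1 had 1 ATTTA and the other 8 had 0.

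**Figure D1:**
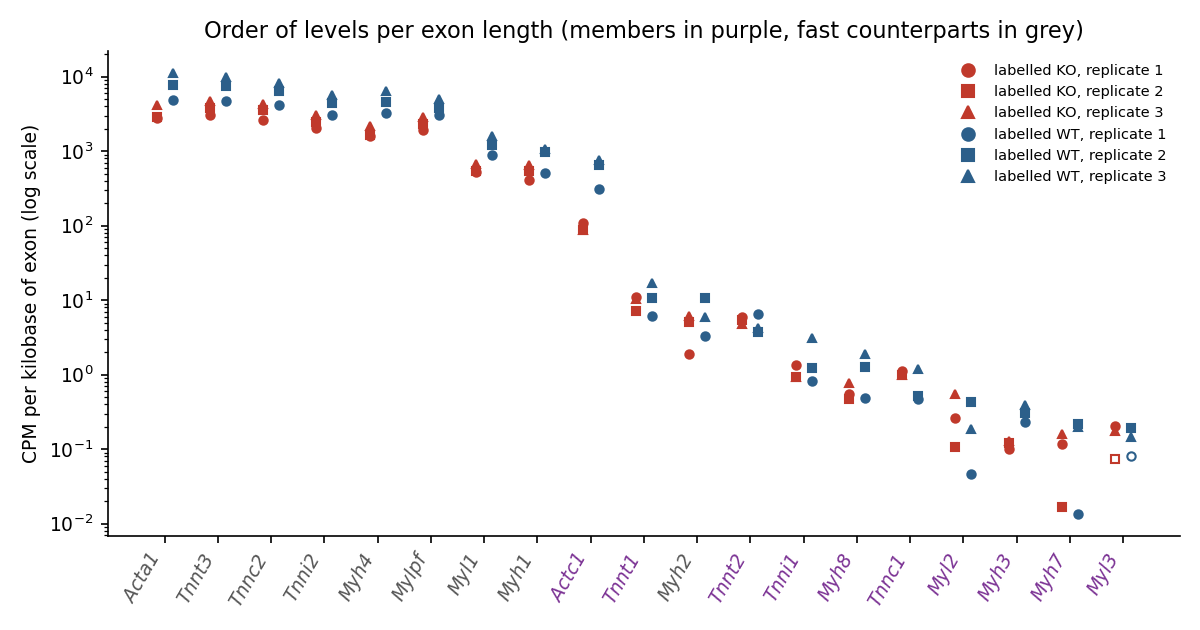
Normalised read count per kilobase of exon (CPM per kb, log scale) of the 10 isoform genes (purple names) and their 9 fast counterparts (grey names), ordered by the mean of 6 libraries, with 1 point per library (red, labelled KO, left; blue, labelled WT, right). Open symbols are libraries with 0 counts, drawn at the level of 3 counts. Apart from Actc1, the highest value of any member is 16.8 CPM per kb (Tnnt1), while 8 of the 9 fast counterparts are at 408 or above in every library.

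Per exon length, the tongue libraries were dominated by the fast set. Of the members, Myh7, Myl2 and Myl3 came nearest to the limit of detection, with 0 to 5 counts in KO replicate 2 and WT replicate 1. Actc1 was the most abundant member, with 94.1 ± 11.6 CPM per kb in KO-labelled tongues and 578 ± 235 in WT-labelled tongues (SD, n = 3 each). It lay below all fast counterparts except Myh2. Tnnt1, the slow skeletal troponin T, came next at 9.47 ± 2.0 and 11.2 ± 5.38 CPM per kb in KO-labelled and WT-labelled tongues. Tnnt2 followed at 5.39 ± 0.628 and 4.81 ± 1.48 CPM per kb, and its range overlapped that of the fast myosin Myh2. Below a gap came Tnni1, Myh8 and Tnnc1, whose libraries overlapped from 1 gene to the next, with means over the 6 libraries of 1.39, 0.909 and 0.882 CPM per kb. Myl2, Myh3, Myh7 and Myl3 closed the order at means of 0.264, 0.212, 0.121 and 0.120 CPM per kb, again with overlapping ranges between neighbours. In that order the libraries did not overlap between Actc1 and Tnnt1 or between Tnnt2 and Tnni1.

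The gap to the fast counterpart spanned orders of magnitude on this per-length scale. Acta1 stood 34.9 times above Actc1 in KO-labelled tongues and 13.7 times above it in WT-labelled tongues. The summed fast myosins Myh1, Myh2 and Myh4 were 23846 and 39129 times above Myh7 in KO-labelled and WT-labelled tongues. Tnnc2 exceeded Tnnc1 by 3392 and 8629 times, and Tnnt3 exceeded Tnnt1 by 407 and 655 times. These ratios depend on exon lengths from GENCODE M21, which may not be the annotation behind the counts.

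**Figure D2:**
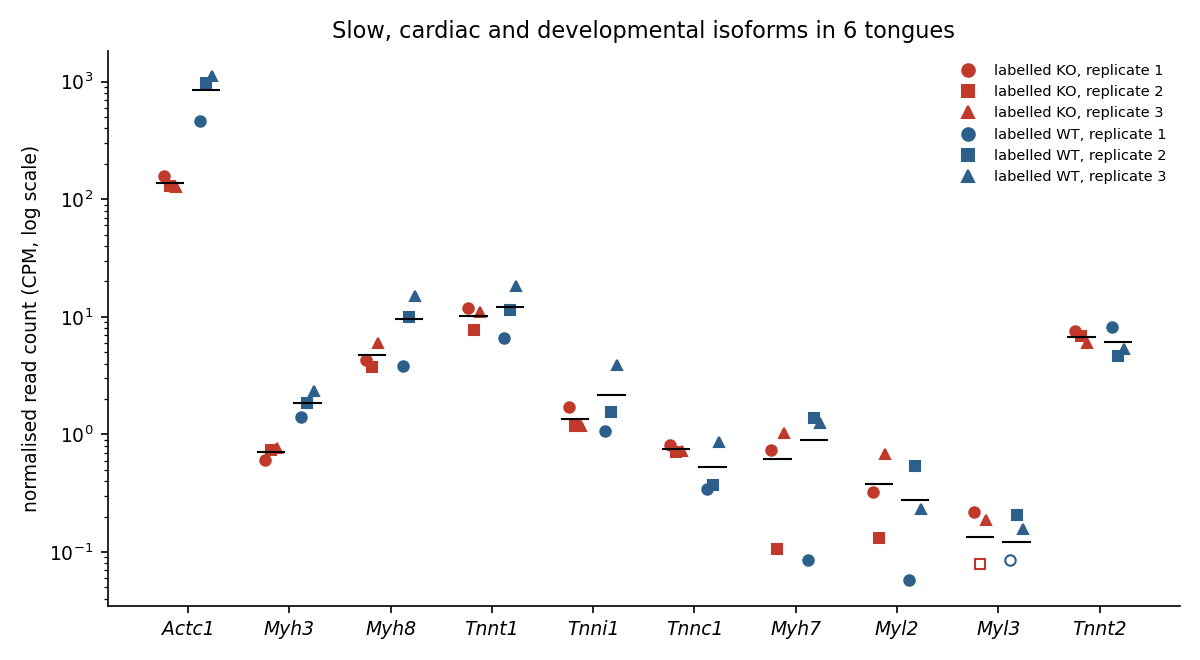
Normalised read count (CPM, log scale) of each isoform gene in every library (red, labelled KO, left; blue, labelled WT, right; symbols give the replicate, black bars the group mean). Open symbols are libraries with 0 counts, drawn at the level of 3 counts. The groups separate in Actc1 and Myh3 and overlap in the other 8 genes.

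Actc1 (identifier 11464, chromosome 2, 114047282 to 114052875, minus strand, GRCm38) is the actin of heart muscle and of developing skeletal muscle. It had 158, 130 and 127 CPM in KO-labelled tongues 1, 2 and 3, against 461, 975 and 1119 CPM in WT-labelled tongues 1, 2 and 3, from 7265, 4925 and 6742 counts against 16083, 46770 and 28627. All KO-labelled tongues lay close together and far below the lowest labelled WT library, which was replicate 1. Its log2 fold change of -2.62 ± 0.33 had a 95% interval from -3.38 to -1.86 (edgeR adjusted p = 0.0295), for a level 0.163 times that of the WT-labelled tongues. Among the 1181 genes called lower it had the 4th largest fall. Actc1 alone accounted for most counts of the 10 genes, which summed to 152 to 186 CPM in KO-labelled tongues and 483 to 1166 CPM in WT-labelled tongues.

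The call of Actc1 depended on the libraries kept, although its size changed little. Its adjusted p by edgeR was 0.125 without KO replicate 1, 0.129 without KO replicate 2, 0.0541 without KO replicate 3 and 0.128 without WT replicate 2, with log2 fold changes of -2.73, -2.58, -2.56 and -2.51. With the sex of the library as a further term it was -2.43 (edgeR adjusted p = 0.185). Of all genes, edgeR called 6, 0, 3 and 1 lower in the fits without those libraries, in that order, and 0 with the sex term. Without WT replicate 1 it called 2938 lower and without WT replicate 3 it called 437, with Actc1 among them each time. In the authors' deposited table, whose fold changes run WT over KO, Actc1 stood at 2.32 with an adjusted p of 2.04e-14.

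Acta1, the skeletal alpha-actin of fast and slow fibres, stood at 4747 ± 1085 CPM in KO-labelled tongues and 11435 ± 4697 CPM in WT-labelled tongues (SD, n = 3 each, log2 fold change -1.27 ± 0.38, edgeR adjusted p = 0.0598). Within each library there were 39.1, 31.1 and 21.2 Actc1 counts per 1000 Acta1 counts in KO-labelled tongues 1, 2 and 3, against 66.3, 88.4 and 68.5 in WT-labelled tongues 1, 2 and 3. The groups did not overlap, and the log2 ratio differed by -1.32 between them, so Actc1 was lower relative to the skeletal actin as well as in CPM. The transcripts of Actc1 and Acta1 share 0 exact windows of 50 bases. Against the summed counts of the 17 general sarcomere genes the difference in Actc1 was -1.47 on the log2 scale, again without overlap. The exact permutation test cannot go below p = 0.1 with 3 against 3 libraries, so these ratios are given as values.

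Genes with the profile most like that of Actc1 over the 6 libraries were sought among the 14229 tested genes with a mean of at least 1 CPM, by the root mean square difference of their centred log2 CPM. The nearest 5 were Gm5420 (0.28), C130080G10Rik (0.33), Susd5 (0.40), the linker histone gene Hist1h1e (0.40) and 1700016C15Rik (0.40). Both of the first are annotated as long non-coding RNAs and share 0 windows of 50 bases with Actc1. C130080G10Rik is the gene next to Actc1 on chromosome 2, at 114054396 to 114061505 on the plus strand, so that the 2 genes point away from each other with 1521 bases between their starts. It had 0.893, 1.16 and 1.06 CPM in KO-labelled tongues 1, 2 and 3, against 3.84, 8.90 and 5.71 CPM in WT-labelled tongues 1, 2 and 3. Its log2 fold change of -2.57 ± 0.34 (edgeR adjusted p = 0.0295) lay within 1 standard error of that of Actc1. Such nearness follows from the choice of C130080G10Rik by its likeness to Actc1 over these same libraries. That it is the neighbour was noticed after its values were seen.

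Myh3 (identifier 17883, chromosome 11, 67078273 to 67102291), the embryonic myosin heavy chain, had 0.610, 0.741 and 0.774 CPM in KO-labelled tongues 1, 2 and 3, against 1.40, 1.83 and 2.34 CPM in WT-labelled tongues 1, 2 and 3. These rest on 28, 28 and 41 counts against 49, 88 and 60 counts, and the groups did not overlap. It fell by 1.38 on the log2 scale (SE 0.29, 95% interval -2.05 to -0.72, edgeR adjusted p = 0.0354). Without KO replicate 1, KO replicate 2, KO replicate 3, WT replicate 2 or WT replicate 3 the edgeR adjusted p of Myh3 was 0.130, 0.129, 0.0653, 0.130 and 0.0616, and with sex as a term 0.185, at log2 fold changes of -1.20 to -1.60.

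Relative to the fast myosins Myh3 did not separate the groups. There were 0.0506, 0.0559 and 0.0450 Myh3 counts per 1000 summed Myh1, Myh2 and Myh4 counts in KO-labelled tongues 1, 2 and 3, against 0.0626, 0.0544 and 0.0519 in WT-labelled tongues 1, 2 and 3. The groups overlapped, with a difference of -0.15 in the log2 ratio. Myh4, the fast heavy chain that made up most of the myosin counts, fell by 1.39 on the log2 scale (SE 0.37, edgeR adjusted p = 0.0493), to 10884 ± 1997 CPM in KO-labelled tongues against 28540 ± 9668 CPM in WT-labelled tongues (SD, n = 3 each). Of the 50-base windows of Myh3 transcripts 0.909% occur exactly in Myh4, 1.59% in Myh1 and 1.80% in Myh2. The summed fast myosins stood 20092 and 18236 times above Myh3 per length in KO-labelled tongues and WT-labelled tongues, and how many of the few Myh3 counts came from their reads was not tested, so the level of Myh3 is uncertain.

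The 5 profiles nearest to Myh3, among the same candidates of at least 1 CPM, had root mean square differences of 0.06, 0.07, 0.08, 0.09 and 0.09. They were those of 2310069B03Rik, the adhesion protein talin, Tln2, the muscle Kelch gene Klhl31, the formin Fhod3 and Rasgrp3. Each had a log2 fold change between -1.22 (Rasgrp3) and -1.44 (Klhl31), which follows from their choice by likeness to Myh3 over these libraries.

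Myh8, the neonatal heavy chain, lies 175 kb from Myh3 in the myosin cluster of chromosome 11, with Myh2, Myh1 and Myh4 between them. It had 4.34, 3.76 and 6.04 CPM in KO-labelled tongues 1, 2 and 3, against 3.84, 9.94 and 15.01 CPM in WT-labelled tongues 1, 2 and 3. WT replicate 1 fell among the KO-labelled tongues, and WT replicates 2 and 3 lay above them. Its fold change was -1.02 ± 0.44 on the log2 scale (95% interval -2.04 to -6.83e-04, edgeR adjusted p = 0.129). It was -1.38 without WT replicate 1 (edgeR adjusted p = 0.00759) but -0.56 without WT replicate 3. Per 1000 fast myosin counts Myh8 had 0.359, 0.284 and 0.351 in KO-labelled tongues 1, 2 and 3, against 0.171, 0.295 and 0.332 in WT-labelled tongues 1, 2 and 3, which overlap. Myh8 shares 4.81 to 6.09% of its 50-base windows with each of the 3 fast genes, so its counts are open to the same uncertainty.

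**Figure D3:**
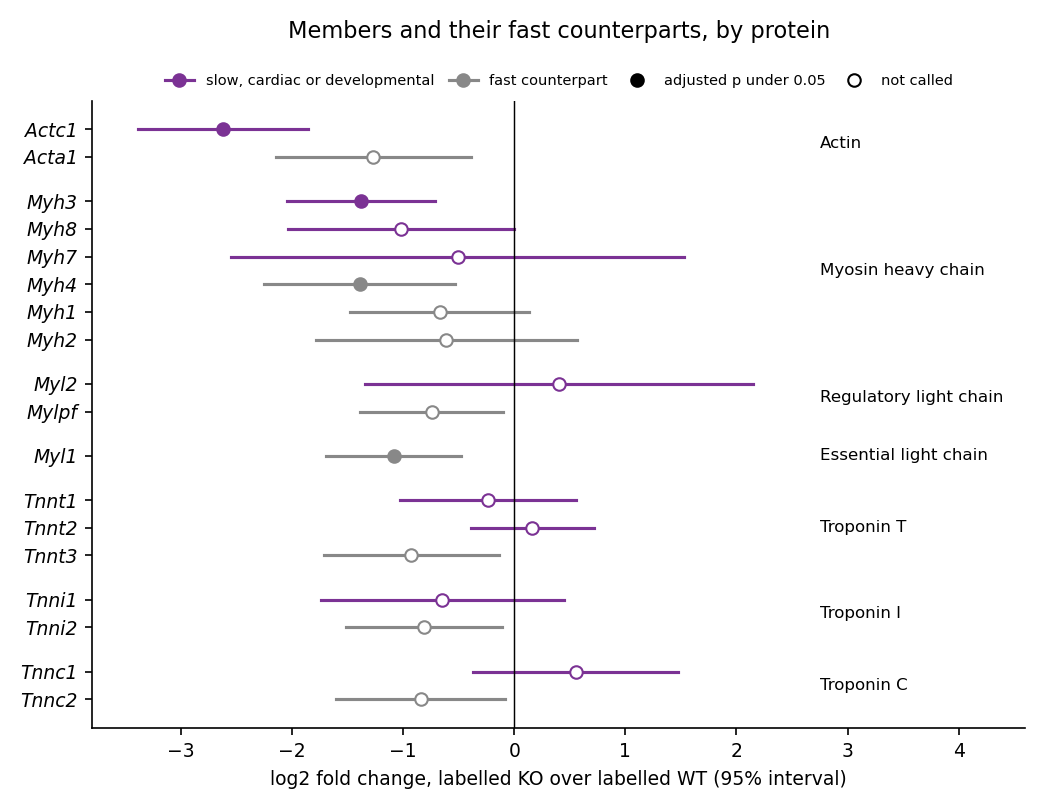
Log2 fold change (labelled KO over labelled WT) with its approximate 95% interval for 9 isoform genes (purple) and their 9 fast counterparts (grey), grouped by protein, where filled points have an adjusted p under 0.05. Myl3 was not tested. Every fast counterpart lies below 0, while Myl2, Tnnt2 and Tnnc1 lie above it with intervals that span 0.

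The slow troponins were not called, and their values are set beside those of their fast counterparts. Tnnt1 had 11.8, 7.75 and 11.1 CPM in KO-labelled tongues 1, 2 and 3, against 6.56, 11.5 and 18.1 CPM in WT-labelled tongues 1, 2 and 3. Its groups overlapped (log2 fold change -0.24 ± 0.34, 95% interval -1.03 to 0.56, edgeR adjusted p = 0.633), and the value was 0.17 without WT replicate 3. Tnnt3, the fast troponin T, stood at -0.93 ± 0.34 (edgeR adjusted p = 0.0916). Within libraries there were 3.26, 1.77 and 2.02 Tnnt1 counts per 1000 Tnnt3 counts in KO-labelled tongues 1, 2 and 3, against 1.17, 1.33 and 1.59 in WT-labelled tongues 1, 2 and 3. All KO-labelled tongues lay above all labelled WT, with a difference of 0.74 in the log2 ratio.

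Tnnc1, the troponin C of slow fibres and heart, had 0.806, 0.714 and 0.717 CPM in KO-labelled tongues 1, 2 and 3, against 0.344, 0.375 and 0.860 CPM in WT-labelled tongues 1, 2 and 3, from 37, 27 and 38 against 12, 18 and 22 counts. WT replicate 3 was the highest of the 6 libraries and the other WT-labelled tongues were the lowest. It stood at 0.55 ± 0.40 on the log2 scale (95% interval -0.37 to 1.47, edgeR adjusted p = 0.328), against -0.84 ± 0.33 for the fast Tnnc2 (edgeR adjusted p = 0.105). Per 1000 Tnnc2 counts there were 0.438, 0.288 and 0.235 Tnnc1 counts in KO-labelled tongues 1, 2 and 3, and 0.118, 0.0841 and 0.147 in WT-labelled tongues 1, 2 and 3. These did not overlap, and the log2 ratio differed by 1.43, the largest difference among the 10 isoform genes that went with groups that did not overlap.

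Tnni1, the slow inhibitory troponin, had 1.70, 1.19 and 1.19 CPM in KO-labelled tongues 1, 2 and 3, against 1.06, 1.54 and 3.91 CPM in WT-labelled tongues 1, 2 and 3. The groups overlapped, and WT replicate 3 alone stood apart (log2 fold change -0.65 ± 0.47, 95% interval -1.74 to 0.44, edgeR adjusted p = 0.331, and 0.053 without WT replicate 3). Its ratio to the fast Tnni2, which stood at -0.82 ± 0.30, overlapped between the groups. Tnnt2, the cardiac troponin T, had 7.54, 6.90 and 5.96 CPM in KO-labelled tongues 1, 2 and 3, against 8.20, 4.67 and 5.35 CPM in WT-labelled tongues 1, 2 and 3. WT replicate 1 was the highest and the groups overlapped (log2 fold change 0.16 ± 0.24, 95% interval -0.39 to 0.72, edgeR adjusted p = 0.633). Its log2 ratio to Tnnt3 was 1.09 higher in KO-labelled tongues, with WT replicate 1 inside their range.

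**Figure D4:**
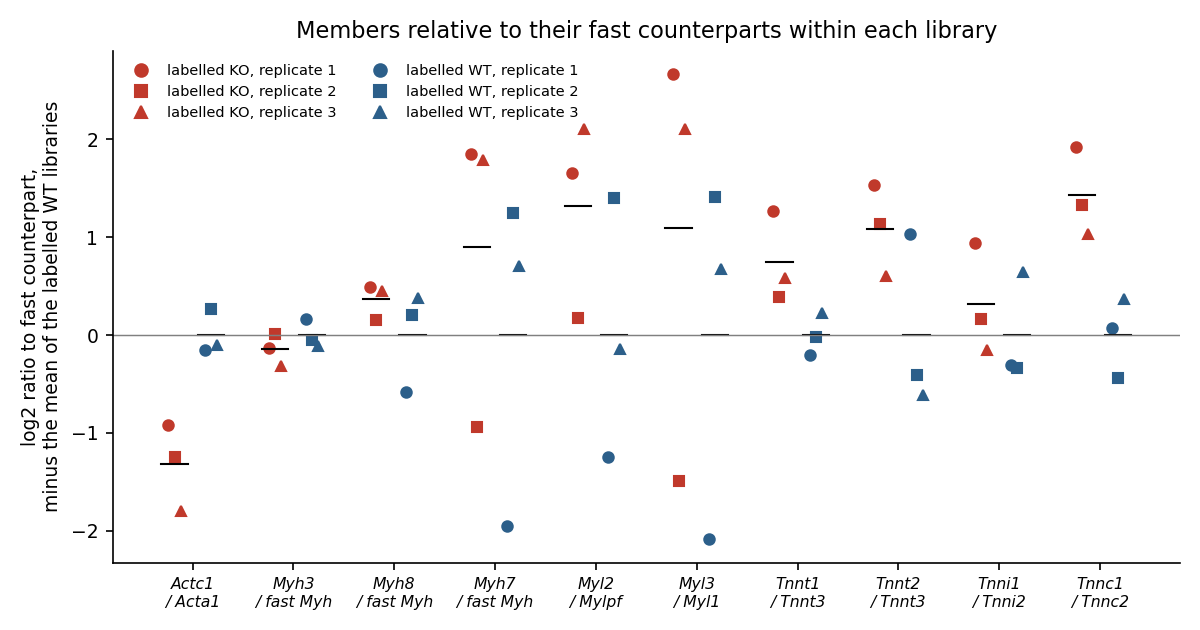
Log2 ratio of each isoform gene's counts to those of its fast counterpart in every library, minus the mean of the WT-labelled tongues (red, labelled KO, left; blue, labelled WT, right; black bars, group means; fast Myh is the sum of Myh1, Myh2 and Myh4). Actc1 is lower in all 3 KO-labelled tongues, Tnnt1 and Tnnc1 are higher in all 3, and the other 7 overlap.

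Over the 10 ratios to fast counterparts, the groups did not overlap in 3, with Actc1 lower and Tnnt1 and Tnnc1 higher in KO-labelled tongues. Against the general sarcomere sum the same 3 genes separated in the same directions. That sum was 17468 to 24552 CPM in KO-labelled tongues and 30995 to 53109 CPM in WT-labelled tongues. All 9 fast counterparts also had fold changes below 0. A gene steady in CPM would thus come out higher in KO-labelled tongues in either ratio. The share of all genes tested that separate in such ratios was not counted. The fast genes themselves moved unequally against that sum, from -0.30 for Myh4 to 0.44 for Myh2 on the log2 scale, and 3 of the 9 did not overlap, Myh4 lower and Mylpf and Tnni2 higher. For single genes in CPM, 22.0% of all genes tested did not overlap and were higher, and 22.1% did not overlap and were lower.

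Myh7, Myl2 and Myl3 encode the heavy chain and both light chains of slow and ventricular myosin, and each rested on few counts. Myh7 had 34, 4 and 54 counts in KO-labelled tongues 1, 2 and 3, against 3, 66 and 32 in WT-labelled tongues 1, 2 and 3, or 0.741, 0.106 and 1.02 CPM against 0.0860, 1.38 and 1.25 CPM. Myl2 had 15, 5 and 36 counts against 2, 26 and 6, and Myl3 had 10, 0 and 10 counts against 0, 10 and 4 in the same order of libraries. All 3 genes were lowest in KO replicate 2 and WT replicate 1, and the groups overlapped in each. At these depths 0 counts of Myl3 allow up to 0.0794 CPM in KO replicate 2 and 0.0860 CPM in WT replicate 1, the level of 3 counts, which covers counting error only. Log2 fold changes were -0.51 ± 0.88 for Myh7 (95% interval -2.55 to 1.53, edgeR adjusted p = 0.689) and 0.41 ± 0.76 for Myl2 (95% interval -1.34 to 2.15, edgeR adjusted p = 0.710), so changes of several fold in either direction were not detectable.

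The same pair of libraries was the lowest for 5 of the 10 isoform genes, which include Tnnt1 and Myh8. It was the lowest for 3 of the 10 heart genes (Myh6, Nppa and Mybpc3) and for Csrp3 among the 9 other slow genes. For 9 genes of developing muscle and the 17 general sarcomere genes the number was 0 in each list. Of all genes tested 2.18% had this pattern. This pattern was noticed and counted after the values were seen. Mybpc3, the cardiac myosin-binding protein C, is one example. It had 32, 6 and 38 counts in KO-labelled tongues 1, 2 and 3, against 1, 21 and 6 in WT-labelled tongues 1, 2 and 3. Tnnt1 had a narrower range, 7.75 CPM in KO replicate 2 and 6.56 CPM in WT replicate 1 beside 11.1 to 18.1 CPM in the rest. Tnnc1 was lowest in WT replicates 1 and 2 and Tnnt2 in WT replicates 2 and 3. Ttn had 4262 CPM in KO replicate 2 beside 5006 and 6016 CPM in KO replicates 1 and 3. Among tested genes with a mean of at least 1 CPM, the 5 nearest to Myh7 in profile were Fbxo44, Fzd9, Lyplal1, Rec8 and Rp1. They were 0.84 to 0.94 log2 units away, against 0.28 to 0.40 for those nearest to Actc1. Genes below that mean, Myl2 and Mybpc3 among them, were not candidates in this search. Reads of Myh7 cannot be told from those of the antisense transcripts that overlap it, among them Mhrt, since the strand setting is not given in the sources used here. Myl2, Myl3 and Tnnc1 likewise overlap a gene on the other strand. For Actc1 the GENCODE M21 extent of A530058N18Rik overlaps it, while RefSeq places that gene 14990 bases away.

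**Figure D5:**
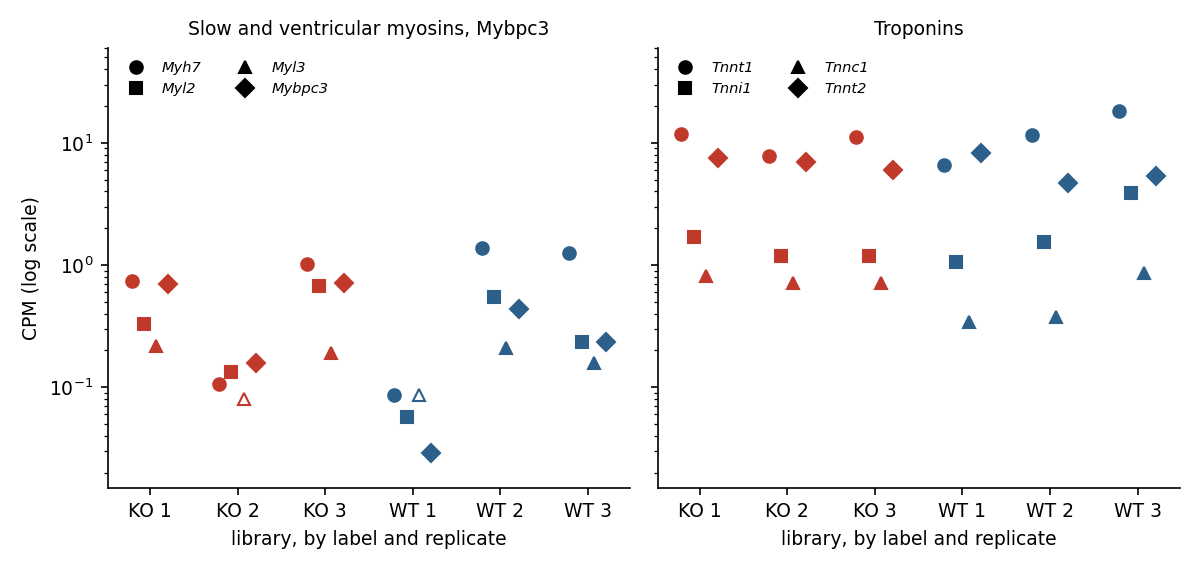
CPM (log scale) in each of the 6 libraries (red, labelled KO; blue, labelled WT) of Myh7, Myl2, Myl3 and Mybpc3 (left) and of the troponins Tnnt1, Tnni1, Tnnc1 and Tnnt2 (right), with 1 symbol per gene. Open symbols are libraries with 0 counts, drawn at the level of 3 counts. The 4 genes on the left are lowest in KO replicate 2 and WT replicate 1, and of the troponins Tnnt1 is too, within a narrower range.

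Of 9 measured genes of slow fibres outside the 10, 1 fell and 0 rose, with a median log2 fold change of -0.86. At an unadjusted p under 0.05, by DESeq2 and by limma-voom 4, 3 and 1 were lower and 0 higher. The 1 that fell was phospholamban, Pln, an inhibitor of the slow and cardiac calcium pump, at 2.48 ± 0.484 CPM in KO-labelled tongues and 5.64 ± 1.76 CPM in WT-labelled tongues (SD, n = 3 each, -1.18 ± 0.28, edgeR adjusted p = 0.0408). Named after their values were seen, that pump, Atp2a2, stood at 0.03 ± 0.15, and Csrp3, a protein of the Z-disc, at -1.17 ± 0.63 with WT replicate 3 (264 CPM) far above WT replicates 1 and 2 (48.7 and 56.9 CPM).

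Among the 17 regulators of fibre type and muscle genes, 7 fell and 0 rose, with a median of -0.69. The edgeR test without adjustment (p under 0.05), DESeq2 and limma-voom had 11, 10 and 7 lower and 1, 1 and 0 higher. Six4, a homeobox factor of the fast programme, stood at 14.4 ± 1.5 CPM in KO-labelled tongues and 36.7 ± 8.10 CPM in WT-labelled tongues (SD, n = 3 each, -1.35 ± 0.19, edgeR adjusted p = 0.0295). Tbx15, a T-box factor of fast fibres (-0.93 ± 0.18), Sox6, a repressor of slow genes (-0.69 ± 0.15), and Tead1, the factor that binds MCAT elements (-1.07 ± 0.23), fell too. Esrrg and Mef2c were also among those that fell. Srf, whose protein binds the CArG box, stood at -0.03 ± 0.11 (edgeR adjusted p = 0.856), and Mef2a and Mef2d at -0.43 ± 0.14 and -0.69 ± 0.20 without passing.

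Of 10 tested genes of developing and regenerating muscle outside the isoform set, 3 fell and 0 rose, with a median of -0.97. The edgeR test without adjustment (p under 0.05), DESeq2 and limma-voom had 6, 5 and 2 lower and 0 higher. Those that fell were the myogenic factor Myog (-0.999 ± 0.23), the acetylcholine receptor subunit Chrna1 (-0.96 ± 0.24) and the muscle cadherin Cdh15, at 7.20 ± 1.15 CPM in KO-labelled tongues and 14.7 ± 5.05 CPM in WT-labelled tongues (SD, n = 3 each, -1.02 ± 0.27, edgeR adjusted p = 0.0483). Myl4, the embryonic and atrial light chain, stood at -0.37 ± 0.22, nearer to 0 than Myh3.

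The heart was checked because 6 of the 10 isoform genes are also ventricular. Levels within the heart list differed. Low were Myh6, at 0.397 to 0.793 CPM in KO-labelled tongues and 0.602 to 1.33 CPM in WT-labelled tongues, and Nppa, at 0.238 to 0.528 and 0.258 to 0.521 CPM. Tbx5 had 0 counts in 4 of the 6 libraries. Higher were the homeobox factor gene Nkx2-5, at 5.63 to 11.1 CPM in KO-labelled tongues and 12.0 to 18.3 CPM in WT-labelled tongues, and Nppb, at 4.95 to 7.14 and 0.156 to 0.745 CPM. Myl7, the atrial light chain, was at 2.17 to 2.62 CPM in KO-labelled tongues and 0.438 to 1.81 CPM in WT-labelled tongues (0.99 ± 0.45, edgeR adjusted p = 0.146). Tnni3, cardiac troponin I, was at 1.62 to 2.24 and 0.896 to 1.06 CPM (0.93 ± 0.25, edgeR adjusted p = 0.0512). Neither was called. The groups did not overlap in these 2 genes. In the heart list 3 of the 9 tested were higher without overlap and 2 lower, against 22.0% and 22.1% of all genes tested. The 10 heart genes summed to 19.1 to 24.5 CPM in KO-labelled tongues and 18.5 to 24.3 CPM in WT-labelled tongues. Of 9 tested 1 rose, Nppb, the B-type natriuretic peptide (3.89 ± 0.47, edgeR adjusted p = 0.0295), and 0 fell. The edgeR test without adjustment (p under 0.05), DESeq2 and limma-voom had 2, 2 and 2 higher and 2, 1 and 0 lower. Smooth muscle markers summed to 355 to 484 CPM and 430 to 530 CPM in KO-labelled and WT-labelled tongues, and 1 of 7, Myh11, fell (-0.75 ± 0.15). The general sarcomere sum was 17468 to 24552 CPM in KO-labelled tongues and 30995 to 53109 CPM in WT-labelled tongues.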

How the data were processed

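Gene counts of 6 tongue libraries were analysed (TruSeq RNA libraries, per the labels' protocols). Columns were matched to samples by the identifiers in the labels, and groups and replicate numbers came from the titles. The authors deposited 3 tables of raw read counts, 1 with 6 and 2 with 4 libraries, and the shared counts are identical. Beside them, per the file headers, stand a mean normalised count (a signal scaled by DESeq2 size factors), a log2 change, the error of that value, the score of the test and a p-value, raw and adjusted, whose fold changes run WT over KO. Per the submitters' processing notes HTSeq and DESeq2 were used and hg19 and mm10 were named. Aligner, annotation and strand setting: not given in the sources used here.

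Counts were fitted with edgeR 4.0.16 in R 4.3.3: filterByExpr (10 counts, 15 in all), TMM, robust quasi-likelihood fit by group, Benjamini-Hochberg threshold 0.05. Standard errors are the absolute log2 fold change over the square root of F and are approximate. Alternatives used DESeq2 1.42.0 and limma 3.58.1. At 1 CPM a library had 25.6 to 53.0 counts. Levels per kilobase used exons of GENCODE M21, and ratios added 0.5 counts. The fit was tested on simulated data. Replicates differed far beyond sampling noise (mean chi-square per gene 57.8 to 257).

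The members, lists and tests were chosen with earlier results of these data known. Named were the 10 members, their counterparts, Elavl1, sex-linked genes, up to 4 called genes of each list (2 where none was called) and the 5 most alike profiles of Actc1, Myh3 and Myh7. A few further list members are given as values, and 1 called list member is not reported here.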

Additional observations from a re-analysis of the deposited data

How the results depend on the processing

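Of the 10 isoform genes 2 were called lower, and 2 also by DESeq2, by limma-voom, with DESeq2 size factors, without TMM, without a filter on low counts, without robust dispersion and with a replicate block. With sex as a covariate 0 were called, and leaving out 1 library gave 0 to 3 (3 without WT replicate 1, 1 without WT replicate 3, 0 without any other). The libraries of the authors' smaller tables, an alternative chosen after seeing the data, gave 0 (KO replicates 1 and 2 with WT replicates 1 and 3) and 3 (KO replicates 1 and 2 with WT replicates 2 and 3). In every alternative 0 members were called higher.

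Over all genes 765 were called higher and 1181 lower. The counts were 1881 and 2468 by DESeq2, 406 and 468 without TMM, and 0 and 0 with sex as a covariate in edgeR (1672 and 1860 at an unadjusted p under 0.05). They were 0 to 2906 higher and 0 to 2938 lower when 1 library was left out, and 0 and 0 or 2386 and 2900 with the libraries of the 2 smaller tables. With a replicate block they were 1705 and 2112. The deviations of same-numbered libraries had correlations of 0.12, -0.16 and 0.19, the last being the highest of any KO and WT pair. KO replicate 1 correlated best with WT replicate 2 (0.17). With 3 libraries per group these values cannot decide whether the numbers pair the samples. The cause of the differences between these counts of called genes was not tested. The fold changes of Actc1 (-2.90 to -2.38), Myh3 (-1.65 to -1.20), Myh8, Myh7 and Tnnc1 kept their sign in all 16 alternatives. Those of Myl2 ranged from -0.32 to 1.49, of Tnnt1 from -0.52 to 0.17, of Tnnt2 from -8.12e-04 to 0.46 and of Tnni1 from -0.96 to 0.053 when 1 library was left out. Myl2 was -0.83 with KO replicates 1 and 2 and WT replicates 2 and 3. The difference in the members' share of counts stayed below 0, from -0.0802 to -0.0548 percentage points when 1 library was left out (-0.0644 with all), but was -0.000395 without Actc1, an alternative chosen after seeing the data, so it rests on that gene. Low counts limit what could be seen of Myl2, Myl3 and Tnnc1, below 1 CPM in every library, and of Myh7 and Myh3, below 1 CPM in some. Libraries of the same label also differed widely in Myh7, with 4 to 54 counts in KO-labelled and 3 to 66 in WT-labelled tongues. For Myl2 these were 5 to 36 and 2 to 26 counts.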

Other observations

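Within 100 kb of Actc1 the other tested genes were C130080G10Rik, which fell, Gjd2, a connexin gene (-1.48 ± 0.83, edgeR adjusted p = 0.218), and Aqr, a spliceosome helicase (0.22 ± 0.11, edgeR adjusted p = 0.182). Aqr lies 48.3 kb beyond the start of Actc1, and Gjd2 lies nearer, 32.9 kb beyond its other end. The divergent pair of Actc1 and C130080G10Rik stood at -2.62 and -2.57, and C130080G10Rik was first picked by its likeness to Actc1. Whether these neighbours share a cause was not tested. The window was chosen after these values were seen.

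In the myosin cluster of chromosome 11, the non-coding gene 2310065F04Rik, 10.2 kb from Myh3, fell by 1.05 on the log2 scale (SE 0.16, edgeR adjusted p = 0.0295). Around it Myh3 and Myh4 fell, and Myh2 (-0.61 ± 0.51), Myh1 (-0.67 ± 0.35) and Myh8 were not called.

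The authors' deposited table of 6 libraries, whose fold changes run WT over KO, gave Myh3 1.19 with an adjusted p of 8.59e-04 and Myh8 0.82 with an adjusted p of 0.0543.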
